A study of Arabidopsis thaliana with 9 samples.

Results

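The comparison set 6 root samples of the mutant lines hcr1-1 and hcr1-2, the 2 lines weighted equally, against 3 root samples of the wild type Col-0, and asked what the lines share. It uses all 9 arrays of the study. The groups were hcr1-1 (3 arrays), hcr1-2 (3 arrays) and Col-0 (3 arrays), all Arabidopsis thaliana of ecotype Col-0. Per the labels every plant was 21 days old, was kept in hydroponics with ample potassium at a pO2 of 11.1 ± 1.1%, and gave its roots to a pool of 5 plants, from which 100 ng of RNA was amplified for 1 Affymetrix Arabidopsis Gene 1.1 ST array. Each title marks its sample as a biological replicate. All groups grew in low oxygen, so the values describe genotype within hypoxia, and the labels do not place the lesion of either line in the gene.

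HCR1 (HYDRAULIC CONDUCTIVITY OF ROOT 1, AT3G24715) encodes a Raf-like protein kinase that lowers the water permeability of roots. When oxygen is short, plant cells stabilise group VII ethylene response factors, which switch on a core set of genes for fermentation, sugar breakdown and oxygen-sparing metabolism. HCR1 is known to act on that response when potassium is ample, through RAP2.12, a factor of that group.

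Signals are given in log2 units as deposited, and a difference of both lines is the mean of the 2 lines' log2 values minus that of Col-0. Of 38408 rows of the array, the 16746 that its annotation pairs with exactly 1 gene were tested, with array medians between 3.50 and 3.56. The roots could be checked against only 7 of 30 cell type markers. Measured were 2 of 5 shoot, 2 of 5 root hair, 1 of 5 xylem and 2 of 4 dividing-cell markers. None of the endodermis, phloem, root cap or root transport markers was measured. The root hair expansin EXPA7 stood between 4.55 and 4.95 in the 6 mutant arrays and between 4.47 and 4.91 in Col-0. LHCB4.1, a light-harvesting protein of shoot tissue, stood at similar readings of 4.35 to 4.92 in the mutant arrays and 4.58 to 4.73 in Col-0. The other root hair marker, EXPA18, lay between 3.46 and 4.27 in the mutant arrays and between 3.45 and 4.11 in Col-0, with a difference of 0.02 in hcr1-1 and 0.37 in hcr1-2. Of the dividing-cell markers, AUR2 was at 3.71 to 4.24 in the mutant arrays and 3.58 to 4.003 in Col-0, a difference of 0.28 (SE 0.13, unadjusted limma p of 0.048), and AUR1 stood at -0.05. The shoot marker RCA stood at -0.11, and the xylem marker is given further on. The part of these markers in the results was not tested. In pooled roots, fewer cells of a type and less RNA per cell cannot be told apart.

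HCR1 itself was lower in both lines, by unequal amounts. It read 3.46, 3.25 and 2.36 in the hcr1-1 arrays and 4.24, 4.38 and 4.30 in the hcr1-2 arrays, against 4.60, 4.85 and 4.88 in Col-0. Every mutant array lay below every Col-0 array. Over both lines the fit put HCR1 at -1.12 relative to Col-0 (SE 0.20, with a 95% interval from -1.55 to -0.68). The difference was larger in hcr1-1, at -1.76 (SE 0.23) against -0.48 (SE 0.23) in hcr1-2, and hcr1-2 stood 1.28 above hcr1-1 (95% interval 0.78 to 1.78). Neither line alone passed limma, with an adjusted p of 0.130 in hcr1-1 and 0.903 in hcr1-2.

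The neighbouring genes of HCR1 on chromosome 3 were read for a shared local change. Of 20 measured neighbours, 10 on either side in the gene table, only AT3G24730 had all 6 mutant arrays below all Col-0 arrays. Its gene model is next to that of HCR1 and overlaps it in the TAIR10.1 table. AT3G24730 read 3.89, 4.29 and 4.27 in hcr1-1 and 3.59, 3.35 and 3.95 in hcr1-2, against 4.69, 4.41 and 4.58 in Col-0. Here the order of the lines was the other way round, with a log2 fold change of -0.41 in hcr1-1 and -0.93 in hcr1-2, and the line difference of -0.52 had a 95% interval of -0.88 to -0.15. The other neighbours stood between -0.19 and 0.18.

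Across all genes, no transcript separated the mutants from Col-0 after adjustment. The limma test called 0 of 16746 rows (0% of rows) once p was adjusted over all rows (threshold 0.05), and no adjusted value was smaller than 0.998. At an unadjusted p under 0.05 it listed 349 rows as higher in the mutants (2.08%) and 275 as lower (1.64%), 624 in all. Half-widths of the 95% interval had a median of 0.27, and the 5th and 95th percentiles of the differences were -0.21 and 0.23.

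What the lines shared array by array was therefore counted without a model. All 6 mutant arrays lay above all 3 Col-0 arrays in 186 rows (1.11%), and below them in 119 rows (0.711%), which together are 299 genes. The rows above had a median difference of 0.25 and a median Col-0 signal of 2.84, and the rows below had -0.23 and 4.21. Over all rows the median difference was 0.0089 and the median Col-0 signal 3.50. Most of these separations were small. Where the smaller of the 2 lines' differences had to reach 1.25-fold, 29 rows above and 25 rows below remained. These genes were picked by their separation, so the separation itself is a description and no test of any of them.

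**Figure D1:**
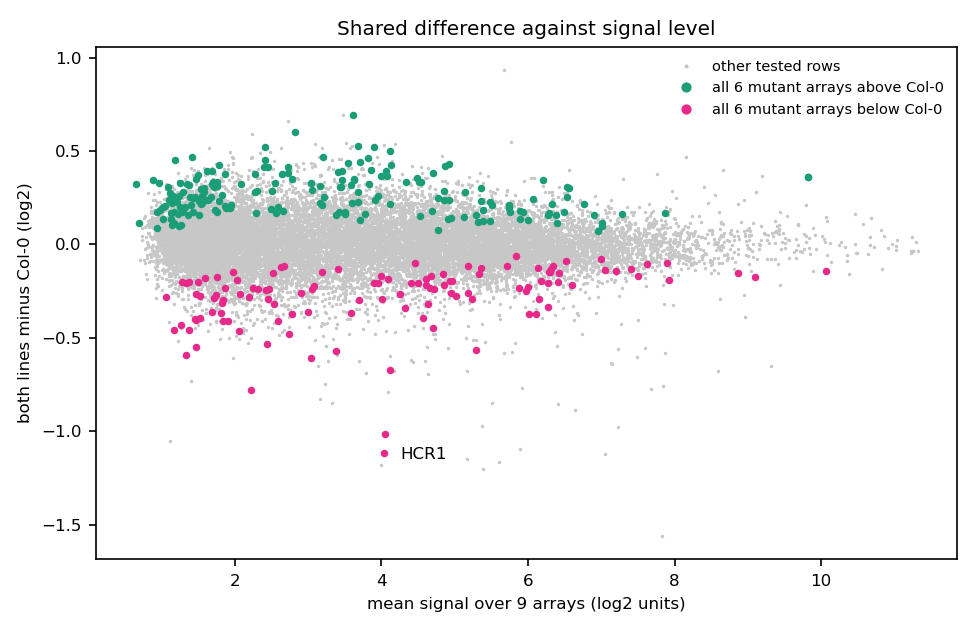
Difference of both hcr1 lines against Col-0 (log2, vertical axis) over the mean signal of the 9 arrays (log2 units, horizontal axis) for each of the 16746 rows. Green points are the 186 rows with all 6 mutant arrays above Col-0, pink points the 119 rows with all 6 below, and HCR1 at -1.12 lies lowest among them.

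Among the separated genes other than HCR1, the largest shared difference below Col-0 was that of AT5G35940, a jacalin-related lectin, a class of sugar-binding proteins. It read 3.68, 3.29 and 4.39 in hcr1-1 and 3.70, 3.55 and 3.62 in hcr1-2, against 4.69, 4.51 and 4.96 in Col-0. The third hcr1-1 array came within 0.12 of the lowest Col-0 array, and the others lay further below. Its log2 fold change was -1.02 in both lines together (SE 0.20), -0.94 in hcr1-1 and -1.10 in hcr1-2. With the third hcr1-1 array left out, AT5G35940 at -1.17 and HCR1 at -0.95 were the only genes that limma called, both at an adjusted p of 0.0448. Of 5 measured jacalin-related lectins with such a name in the annotation, 4 were higher and 1 lower in the fit, with JAL31 at 0.30, JAL22 at 0.09, JAL23 at 0.07 and JAL33 at -0.04.

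AT5G25960 followed on the lower side, with readings of 2.00, 1.96 and 1.97 in hcr1-1 and 2.03, 2.06 and 1.72 in hcr1-2, against 2.16, 3.07 and 2.98 in Col-0. The first Col-0 array was close to the mutants, 0.10 above the highest of them, and the difference of -0.78 (SE 0.18) came to -1.07 without that array. AT5G51900 read 1.21, 1.07 and 1.11 in hcr1-1 and 1.11, 1.08 and 1.22 in hcr1-2, against 1.90, 1.32 and 1.97 in Col-0. Both are dim genes whose mutant readings bunched tightly while Col-0 spread.

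AT1G10140 was the only one of 27 measured members of the core hypoxia list whose groups did not overlap (3.70%, against 0.711% of all rows). It read 5.39, 4.86 and 5.04 in hcr1-1 and 5.19, 5.11 and 5.03 in hcr1-2, against 5.72, 5.42 and 5.87 in Col-0. The highest mutant array lay 0.03 below the lowest Col-0 array. Its difference was nearly the same in the lines, at -0.57 in hcr1-1 and -0.56 in hcr1-2, with a line difference of 0.01 (95% interval -0.33 to 0.36).

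The remaining genes of the 15 with the largest shared differences below Col-0 lay between -0.39 and -0.61 in both lines together, AT3G24730 apart. AT1G67910 stood at -0.61 (SE 0.13), AT1G14470 at -0.57 (SE 0.21) and AT3G30200 at -0.55 (SE 0.17), the last of which stood at -0.30 without the third Col-0 array. AT5G15240 at -0.53 (SE 0.12) had mutant arrays between 2.07 and 2.55 and Col-0 arrays between 2.65 and 2.96. AT1G49990, AT1G47800 and AT1G19330 stood at -0.46, -0.46 and -0.45, and AT5G22610 and AT3G51210 at -0.40 and -0.39.

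**Figure D2:**
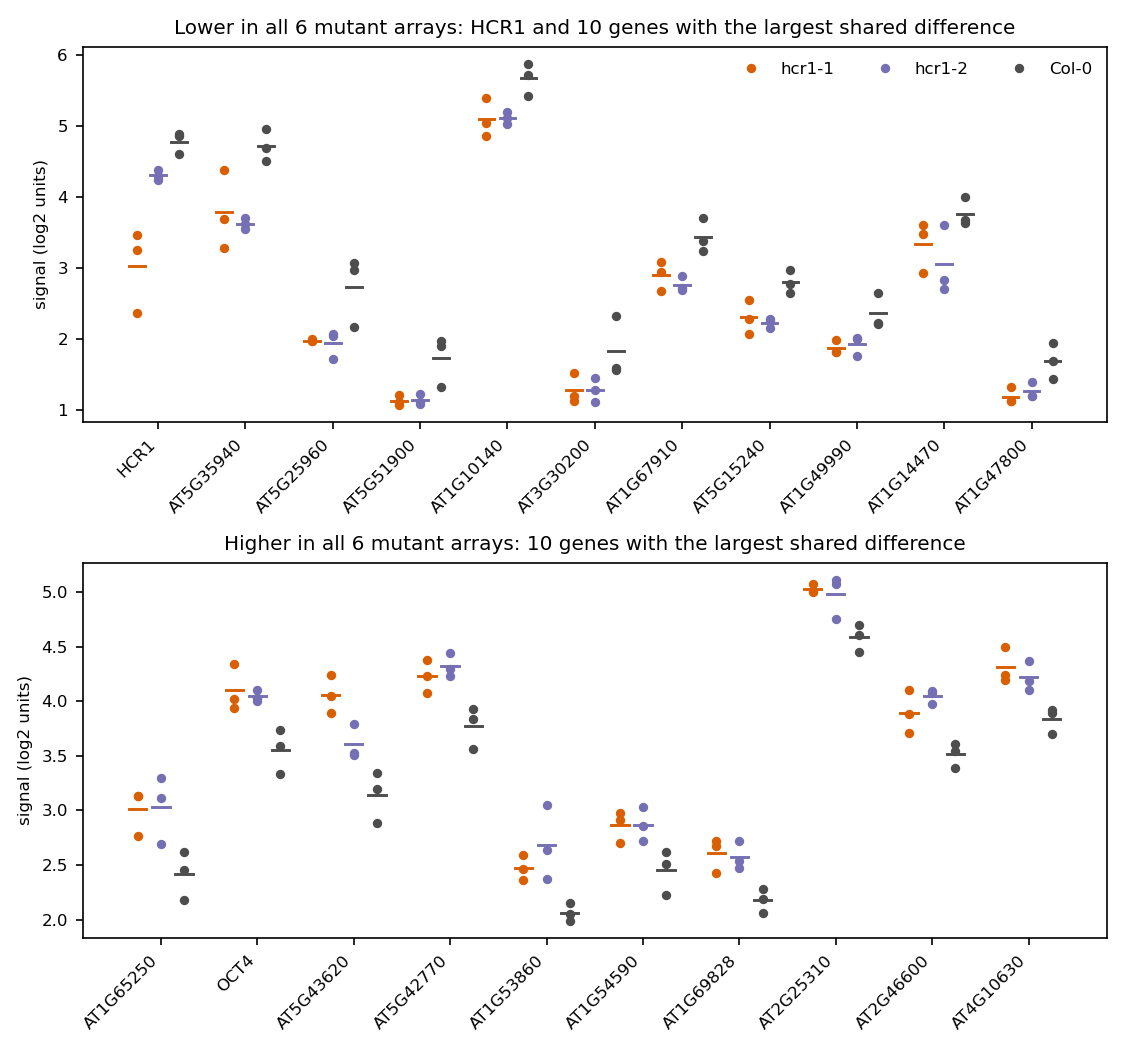
Signal (log2 units) in each array for HCR1 and the 10 genes with the largest shared difference below Col-0 (upper panel) and the 10 above it (lower panel). Points are arrays of hcr1-1 (orange), hcr1-2 (purple) and Col-0 (grey), and bars are the means of 3 arrays. HCR1 is the gene whose lines stand furthest apart, with means of 3.02 in hcr1-1, 4.30 in hcr1-2 and 4.78 in Col-0.

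On the higher side, the largest shared difference was that of AT1G65250. It read 3.13, 2.76 and 3.14 in hcr1-1 and 2.69, 3.30 and 3.11 in hcr1-2, against 2.62, 2.18 and 2.46 in Col-0. The log2 fold change was 0.60 (SE 0.15), with 0.59 in hcr1-1 and 0.62 in hcr1-2, although the lowest mutant array lay only 0.08 above the highest Col-0 array.

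OCT4, a carrier of organic cations, came next. Its signal was 3.94, 4.34 and 4.02 in hcr1-1 and 4.03, 4.103 and 4.001 in hcr1-2, against 3.33, 3.74 and 3.60 in Col-0. No mutant array was lower than 0.20 above the highest Col-0 array. The log2 fold change was 0.52 (SE 0.12, 95% interval 0.25 to 0.79). The other organic cation carriers measured, OCT1 at 0.27 and OCT5 at 0.22, had the same sign with overlapping arrays.

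Among these 15 genes AT5G43620 had the largest difference of both lines together, but its size was not shared. It read 4.05, 4.24 and 3.90 in hcr1-1 and 3.79, 3.52 and 3.51 in hcr1-2, against 3.35, 2.88 and 3.20 in Col-0. The log2 fold change was 0.92 in hcr1-1 and 0.47 in hcr1-2, and the line difference of -0.45 had a 95% interval of -0.78 to -0.13, with a limma adjusted p of 0.873 over all genes. AT5G42770, by contrast, was alike in the lines, at 0.45 in hcr1-1 and 0.55 in hcr1-2. Its arrays read 4.24, 4.38 and 4.07 in hcr1-1 and 4.23, 4.29 and 4.45 in hcr1-2, against 3.93, 3.84 and 3.56 in Col-0.

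The other genes of the 15 with the largest shared differences above Col-0 lay between 0.38 and 0.52 in both lines together. AT1G53860 stood at 0.52 (SE 0.14), AT2G46600 at 0.46 (SE 0.11), and AT5G42232 and AT1G14048 at 0.45 each (SE 0.11). AT4G10630 stood at 0.43, AT1G69828 and AT2G25310 at 0.42, AT1G54590 at 0.41, AT4G14358 at 0.39 and AT2G41980 at 0.38. AT2G25310 was the brightest of them, with mutant arrays between 4.76 and 5.11 and Col-0 arrays between 4.45 and 4.70. Most of these genes carry no symbol in the annotation, and their roles are not given here.

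Few of the separated rows carry a gene symbol: 21 of those above (11.3%) and 10 of those below (8.40%), HCR1 not among them, against 10.9% of all rows tested. They were described after their values were seen, in the groups that follow, because the annotation names them. A missing symbol does not mean that the role of a gene is unknown. The groups by role were made then too, so the number of a group on one side is no result. None passed the limma test after adjustment.

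COV1, GUT2, GH9B6 and ATPMEPCRB act in vascular tissue or the cell wall. Over all 92 measured genes of wall families, 1 was separated above and 1 below (1.09% each, against 1.11% and 0.711% of all rows). Those were ATPMEPCRB and GH9B6, while COV1 and GUT2 were not in those families. COV1, a membrane protein that limits the spread of vascular tissue in the stem, read 5.91, 5.81 and 6.02 in hcr1-1 and 5.68, 5.90 and 5.98 in hcr1-2, against 6.20, 6.22 and 6.35 in Col-0. That is a log2 fold change of -0.37 (SE 0.10), with -0.34 in hcr1-1 and -0.40 in hcr1-2. GUT2, a xylan synthesis protein of secondary walls and the only xylem marker measured, read 6.21, 6.28 and 6.41 in hcr1-1 and 6.28, 6.43 and 6.47 in hcr1-2, against 6.49, 6.65 and 6.50 in Col-0. Its difference was -0.20 (SE 0.10), and the highest mutant array nearly met the lowest Col-0 array. GH9B6, a cellulase of the glycosyl hydrolase 9 family, stood at -0.12, while the pectin methylesterase ATPMEPCRB was on the other side at 0.24.

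Sugar carriers of the SWEET family, which let sugars cross membranes down their gradient, were found on both sides. SWEET14 read 1.28, 1.12 and 0.82 in hcr1-1 and 1.08, 1.36 and 1.08 in hcr1-2, against 1.52, 1.53 and 1.60 in Col-0, a difference of -0.43 (SE 0.12). SWEET9, known from nectaries, read 1.76, 1.68 and 1.78 in hcr1-1 and 2.13, 1.96 and 1.59 in hcr1-2, against 1.56, 1.49 and 1.48 in Col-0, a difference of 0.31 (SE 0.12). Both are dim genes, well under the median Col-0 signal of 3.50. The family of 14 measured members had a median of 0.063, with 10 members higher and 4 lower in the fit. In it 1 member was separated above and 1 below (7.14% each, against 1.11% and 0.711% of all rows).

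MENG, FOLB2, hemb2 and COS1 are enzymes that make vitamins or cofactors, and no list of such enzymes was read as a whole. MENG, which carries out a methylation step in making phylloquinone (vitamin K), read 3.67, 3.73 and 3.48 in hcr1-1 and 3.69, 3.42 and 3.58 in hcr1-2, against 3.26, 3.03 and 3.32 in Col-0. FOLB2, an aldolase of folate synthesis, read 3.16, 3.20 and 3.21 in hcr1-1 and 3.08, 3.12 and 3.14 in hcr1-2, against 2.97, 2.91 and 2.58 in Col-0. Their differences were 0.39 (SE 0.11) for MENG and 0.33 (SE 0.10) for FOLB2. The tetrapyrrole gene hemb2, dim with a Col-0 mean of 1.60, stood at 0.19, and COS1, the lumazine synthase of riboflavin production, stood at -0.08.

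UBP22, LD, SHL1, THO7 and BZIP24 act on chromatin, RNA or transcription, and were picked for lying above Col-0. Of 154 measured genes of transcription families, 2 were separated above (1.299%, against 1.11% of all rows), BZIP24 and ARR15. UBP22 was counted with the 95 genes of protein turnover families, of which 2 were separated above (2.11%). LD, SHL1 and THO7 were in none of the families read. UBP22, a ubiquitin protease that acts on histone H2B, read 3.49, 3.52 and 3.45 in hcr1-1 and 3.52, 3.85 and 3.65 in hcr1-2, against 3.21, 3.25 and 3.25 in Col-0. The narrow Col-0 range left a gap of the whole mutant group above it, and the difference was 0.34 (SE 0.10). The flowering-time gene LD stood at 0.13, the histone reader SHL1 at 0.11 and THO7, of the complex that hands mRNA to export, at 0.08. BZIP24, a transcription factor of salt responses, stood at 0.14 with 0.07 in hcr1-1 and 0.21 in hcr1-2.

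ARR15, CR4, POL, BRK1, NET2D and CYCJ18, which act in signalling, cell shape or division, were picked in the same way. ARR15, a cytokinin-induced response regulator, read 2.44, 2.08 and 1.91 in hcr1-1 and 1.73, 1.76 and 1.60 in hcr1-2, against 1.48, 1.45 and 1.57 in Col-0. Every mutant array was higher, but the size differed between the lines, with a log2 fold change of 0.64 in hcr1-1 and 0.20 in hcr1-2. CR4, the receptor kinase that restrains division of root tip stem cells, stood at 0.30 (SE 0.10), and POL, a phosphatase of stem cell signalling, at 0.20 (SE 0.09). BRK1, a subunit of the SCAR/WAVE complex that starts actin filaments, stood at 0.29 (SE 0.10), the actin-binding NET2D at 0.15 and the cyclin CYCJ18 at 0.24.

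Of 123 measured small secreted peptides, 1 was separated above Col-0 (0.813%, against 1.11% of all rows) and none below. LCR35, a cysteine-rich peptide, read 1.90, 1.31 and 1.93 in hcr1-1 and 1.34, 1.60 and 1.33 in hcr1-2, against 1.15, 1.10 and 1.06 in Col-0, a difference of 0.47 (SE 0.14). Outside those families, LURE1.4, related to peptides that attract pollen tubes, stood at 0.32 with mutant arrays between 0.59 and 0.94 and Col-0 arrays between 0.38 and 0.48. The antimicrobial thionin THI2.1, dim with a Col-0 mean of 1.47, stood at 0.24. The remaining named genes were the ubiquitin-conjugating enzyme UBC34 at 0.17 above Col-0, and 5 genes between -0.17 and -0.09 relative to it. Those were the asparagine-tRNA ligase SYNC3, the photosystem II gene psbB, the isocitrate dehydrogenase ICDH, the GTPase NIG and the SUMO ligase SIZ1.

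Gene families were then read as groups. Names and synonyms in the annotation assigned 1009 measured genes to 67 families and lists. Of those genes, 11 had all 6 mutant arrays above Col-0 (1.09%, against 1.11% of all rows) and 5 had all below (0.496%, against 0.711%). The 5 below include HCR1 itself. With counts this small, neither share is read as a difference between the named families and the array. Of the 37 sets with at least 10 measured members, the 27 nearest to the rest had medians between -0.044 and 0.063, and the other 10 are described below.

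**Figure D3:**
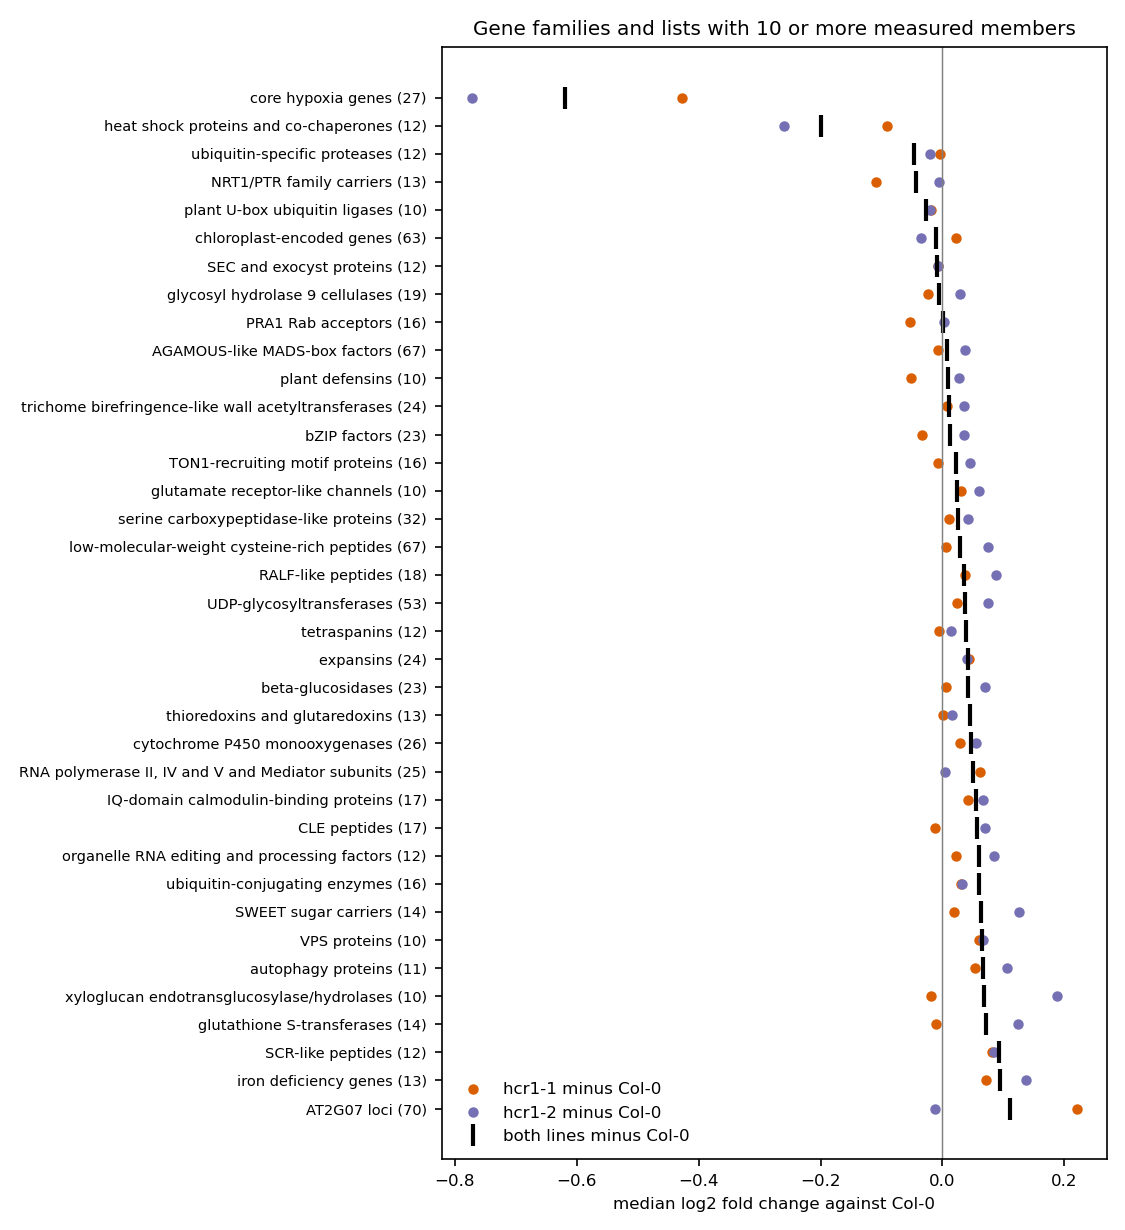
Median log2 fold change against Col-0 (horizontal axis) of each family or list with at least 10 measured members, with the number measured in parentheses. Orange points are hcr1-1, purple points hcr1-2 and black ticks both lines together. The core hypoxia genes (-0.62) and heat shock genes (-0.20) stand off to the left, and the black ticks of the other sets lie between -0.046 and 0.11.

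Wall families showed no shared direction. Of 92 measured wall genes, 52 were higher and 40 lower in the fit, against 52.9% and 47.1% of all rows, and GH9B6 and ATPMEPCRB were the separated ones. The xyloglucan endotransglucosylase/hydrolases, which cut and rejoin wall xyloglucan, had a median of 0.068 over 10 members, with -0.019 in hcr1-1 and 0.19 in hcr1-2, and it was -0.014 without the first Col-0 array. XTH18 was the member the lines shared most, reading 4.28, 4.50 and 4.59 in hcr1-1 and 4.56, 4.76 and 4.16 in hcr1-2, against 4.22, 3.95 and 4.25 in Col-0. Its groups overlapped at the third hcr1-2 array, and its difference was 0.33 (SE 0.14). XTH16 stood at 0.36 (SE 0.15) and XTH21 at 0.19 (SE 0.14), against 0.20 for XTH16 without the first Col-0 array and 0.11 for XTH21 without the second hcr1-1 array. Expansins, which loosen walls, had a median of 0.041 over 24 members, and the wall acetyltransferases of the TBL family 0.010 over 24.

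Conjugation and detoxification enzymes had 124 measured members, with 76 higher and 48 lower in the fit and none separated. The glutathione S-transferases, which join glutathione to toxic compounds, had a median of 0.071 over 14 members, at -0.010 in hcr1-1 and 0.12 in hcr1-2. GSTU21 stood at 0.34 (SE 0.22), with the second hcr1-1 array at 2.49 and every other array at or under 2.04, and at 0.16 without that array. GSTU23 stood at 0.20 (SE 0.10) and GSTU22 at 0.16 (SE 0.10). Among 53 UDP-glycosyltransferases, with a median of 0.036, UGT73B2 stood at 0.39 and UGT73C7 at 0.37, and on the lower side UGT73C2 stood at -0.48 and UGT85A5 at -0.46, all with overlapping arrays. In that family 33 members were higher and 20 lower in the fit.

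Protein turnover and recycling families differed little from the array as a whole. Autophagy proteins had a median of 0.066 over 11 members, where ATG3, the enzyme that conjugates ATG8 to lipid, stood at 0.17 (SE 0.09) and the ATG8 genes ATG8H and APG8H at 0.20 and 0.13. ATG8H stood at 0.13 without the third hcr1-2 array and APG8H at 0.08 without the first Col-0 array, and the autophagy median was 0.00058 without the third Col-0 array. VPS proteins, which sort cargo to the vacuole, had 0.065 over 10 members, with VPS24.2 at 0.18, VPS20.1 at 0.13 and VPS25 at 0.07. Without the third Col-0 array VPS20.1 stood at 0.04 and VPS25 at -0.04, and without the first hcr1-2 array VPS24.2 stood at 0.08. Ubiquitin-specific proteases were on the lower side, at -0.046 over 12 members, with UBP16 at -0.18, UBP27 at -0.15 and UBP24 at -0.07. Among these proteases UBP22 at 0.34 was the only separated member (8.33%, against 1.11% of all rows above Col-0). Their family median was -0.00057 without the first hcr1-2 array, and without the first Col-0 array UBP16 stood at -0.098 and UBP24 at -0.0016. UBP27 stood at -0.096 without the second Col-0 array. Of all 95 turnover genes, 51 were higher and 44 lower in the fit.

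Regulators and peptides followed the same course. Of 154 transcription genes, 87 were higher and 67 lower in the fit, and BZIP24 and ARR15 were separated. The MADS-box factor AGL55 had the largest value among the 67 AGAMOUS-like members, at 0.59, and the family median was 0.008. All 7 measured WRKY factors, which act in defence and senescence, were lower in the fit (against 47.1% of all rows), and 5 were lower in both lines. None separated, and WRKY6 stood at -0.28, WRKY29 at -0.14 and WRKY22 at -0.14. The SCR-like peptides, cousins of the pollen self-recognition ligand, had a median of 0.093 over 12 members at a median Col-0 signal of 1.47, with SCRL19 at 0.23, SCRL22 at 0.15 and SCRL21 at 0.13. Without the first hcr1-2 array those stood at 0.15, 0.05 and 0.06. Of 8 measured histones 6 were higher in the fit (against 52.9% of all rows), and 4 were higher in both lines. Among the 6, HTB4 stood at 0.34 and the drought-linked linker histone HIS1-3 at 0.18.

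The set farthest from the rest was the core hypoxia list, of which 27 of 51 genes were measured. All 27 were lower in the mean of both lines, against 47.1% of all rows, and 25 were lower in each line. The exceptions were AT4G17670, at 0.04 in hcr1-1, and AT5G45960, at 0.01 in hcr1-2. The list median was -0.62, with -0.43 in hcr1-1 and -0.77 in hcr1-2. None passed limma after adjustment, and 12 had an unadjusted p under 0.05 (against 1.64% of all rows). AT1G10140 alone had groups that did not overlap (3.70% of the 27, against 0.711% of all rows). The members named by their shared difference were AT5G10040, CML38 and AT2G17850, at -1.56 (SE 0.62), -1.18 (SE 0.43) and -1.15 (SE 0.57). AT2G17850 stood at -0.71 without the second hcr1-1 array.

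Single arrays of a genotype were far apart for these genes. AT5G10040 read 9.05, 6.20 and 8.70 in hcr1-1 and 5.95, 6.03 and 7.96 in hcr1-2, against 9.26, 7.997 and 9.36 in Col-0. CML38, a calmodulin-like calcium sensor of the hypoxia response, read 4.53, 2.87 and 4.59 in hcr1-1 and 2.83, 2.81 and 3.99 in hcr1-2, against 5.23, 3.86 and 5.26 in Col-0. In both genes the second hcr1-1 array was far lower than the other hcr1-1 arrays, and the second Col-0 array was lower than the other Col-0 arrays.

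The same arrays stood apart over the whole list. With each gene set against its Col-0 mean, the list averaged -0.085, -1.16 and -0.010 in hcr1-1 and -1.12, -1.001 and -0.50 in hcr1-2, against 0.23, -0.58 and 0.35 in Col-0. Without the second hcr1-1 array the list median was -0.49 in both lines together and -0.04 in hcr1-1. In the mean of both lines 26 of 27 members were then lower. Without the second Col-0 array it was -0.86, and 21 of 27 members then had all mutant arrays below the 2 remaining Col-0 arrays, against 3.14% of all rows. With both of these arrays left out it was -0.66, with -0.33 in hcr1-1 and -1.09 in hcr1-2. All 27 members were then lower in the mean of both lines. The part of these arrays in the result was not tested further.

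**Figure D4:**
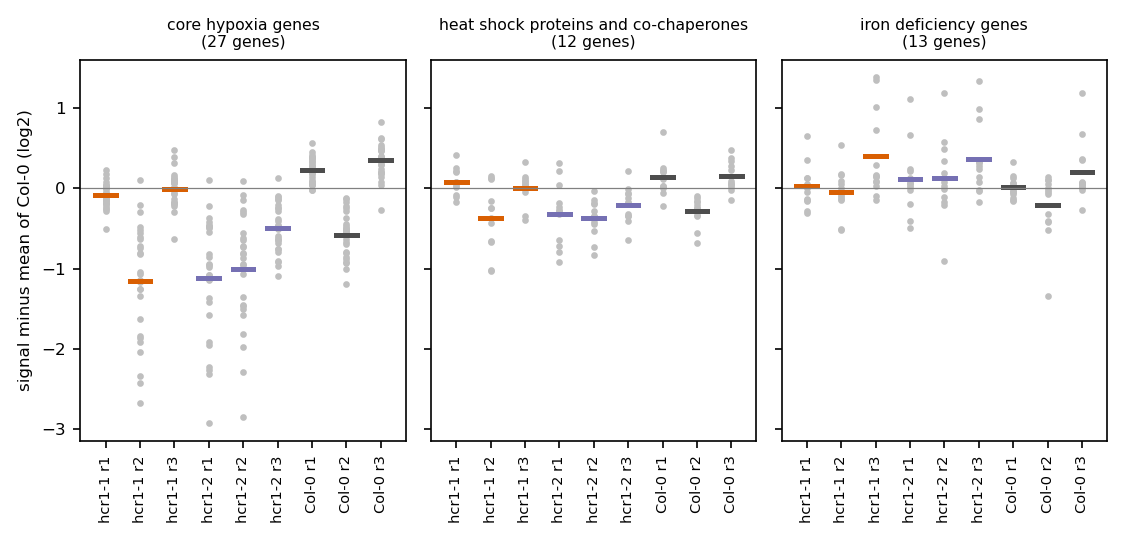
Signal minus the Col-0 mean (log2, vertical axis) of each measured member (grey points) of 3 gene lists in each of the 9 arrays, with the mean over members as a bar (orange hcr1-1, purple hcr1-2, dark grey Col-0). The second arrays of hcr1-1 and Col-0 lie below the other arrays of their genotype in the hypoxia and heat shock panels, at -1.16 and -0.58 in the hypoxia list.

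Genes of fermentation, alanine and sucrose breakdown, of which 6 of 19 were measured, included 4 lower and 2 higher members, with a median of -0.26. AlaAT1, the alanine aminotransferase that stores pyruvate as alanine in hypoxia, read 8.27, 7.12 and 8.29 in hcr1-1 and 7.05, 7.001 and 7.77 in hcr1-2, against 8.50, 7.71 and 8.81 in Col-0. Its difference was -0.76 (SE 0.30), with -0.45 in hcr1-1 and -1.07 in hcr1-2, and its groups overlapped at the second Col-0 array. PDC2, a pyruvate decarboxylase at the entry to ethanol fermentation and also on the hypoxia list, stood at -0.43 (SE 0.24), and AT4G17260 at -0.38 (SE 0.17). The other decarboxylase with a symbol, PDC3, stood at 0.10.

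Heat shock proteins and co-chaperones, which act on damaged proteins, had the lowest median after the hypoxia list among sets with at least 10 measured members. Of 27 listed genes 12 were measured, 10 lower and 2 higher in the fit, and none separated or had an unadjusted p under 0.05. The list median was -0.20, at -0.09 in hcr1-1 and -0.26 in hcr1-2. With 1 array left out, the hcr1-1 median ranged from -0.22 (without the second Col-0 array) to 0.070 (without the second hcr1-1 array). That of hcr1-2 ranged from -0.37 to -0.17, so a lower list in hcr1-1 depends on single arrays. AT5G51440 read 3.44, 2.58 and 3.94 in hcr1-1 and 2.69, 2.79 and 2.97 in hcr1-2, against 3.82, 2.93 and 4.09 in Col-0. The second arrays of hcr1-1 and Col-0 were again the low ones of their genotype. The list averaged 0.083, -0.37 and 0.0050 in hcr1-1 and -0.32, -0.37 and -0.20 in hcr1-2, against 0.14, -0.29 and 0.15 in Col-0, relative to the Col-0 mean. AT1G07400 stood at -0.35 but at 0.00083 without the first Col-0 array, and AT1G53540 at -0.24 but at -0.05 without the second hcr1-1 array. AT5G51440 was at -0.54, at -0.31 without the third Col-0 array and at -0.89 without the second.

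Iron deficiency genes were on the higher side, with 13 of 33 measured and 9 higher and 4 lower in the fit. The list median was 0.094, at 0.071 in hcr1-1 and 0.14 in hcr1-2, and it was 0.034 without the second Col-0 array. AT3G12900 carried the largest value, reading 5.10, 5.59 and 6.43 in hcr1-1 and 6.15, 6.23 and 6.38 in hcr1-2, against 4.89, 4.53 and 5.72 in Col-0. In this gene 4 of the 6 mutant arrays lay above the highest Col-0 array, and the log2 fold change was 0.93 (SE 0.28, 95% interval 0.31 to 1.55), with 0.66 in hcr1-1 and 1.21 in hcr1-2.

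AT1G47395 and AT1G47400, the next on that list, stood at 0.69 (SE 0.44) and 0.47 (SE 0.22), and AT1G47400 at 0.31 without the second Col-0 array. AT1G47395 read 3.66, 2.95 and 4.35 in hcr1-1 and 3.68, 3.59 and 3.99 in hcr1-2, against 3.16, 1.68 and 4.20 in Col-0. The third Col-0 array was above 5 of the 6 mutant arrays, and its value was 0.02 without the second Col-0 array and 1.28 without the third. Among the transcription regulators of iron uptake, PYE, a repressor, stood at -0.35, bHLH121 at -0.23 and bHLH104 at 0.21. Across the list the third array of each genotype was the highest, at 0.40 in hcr1-1 and 0.36 in hcr1-2, against 0.20 in Col-0.

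The loci numbered AT2G07, many of which lie in the copy of the mitochondrial genome on chromosome 2, had the highest median of the sets with at least 10 measured members, 0.11 over 70 genes, but the lines did not share it. The median was 0.22 in hcr1-1 and -0.01 in hcr1-2, and the list averaged 0.31, 0.17 and 0.16 in the hcr1-1 arrays and -0.04, -0.02 and 0.05 in the hcr1-2 arrays, against 0.03, -0.01 and -0.02 in Col-0. Signal from the nuclear copy and from the mitochondrion itself cannot be told apart for them. AT2G07774 and AT2G07706 were the members with all 6 mutant arrays above Col-0 (2.86% of the 70, against 1.11% of all rows). AT2G07774 read 10.06, 9.96 and 9.84 in hcr1-1 and 9.98, 10.00 and 9.81 in hcr1-2, against 9.74, 9.53 and 9.48 in Col-0, a difference of 0.36 (SE 0.10). The 63 chloroplast-encoded genes had a median of -0.010.

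Processes near the known work of HCR1 could be read only in part. None of 20 aquaporin genes was on a tested row. Of 19 potassium genes only AT1G60160 was measured, at -0.33 (SE 0.11), with -0.17 in hcr1-1 and -0.48 in hcr1-2. Of 21 endodermal barrier genes 4 were measured. GSO1, the receptor kinase needed for a closed Casparian strip, read 5.57, 5.96 and 5.99 in hcr1-1 and 5.93, 6.13 and 5.92 in hcr1-2, against 5.56, 5.72 and 5.68 in Col-0. For GSO1, 5 of the 6 mutant arrays lay above Col-0 and the difference was 0.26 (SE 0.12). AT2G47360 stood at 0.16, AT1G61590 at -0.18 and FACT, an acyltransferase acting on long-chain alcohols, at -0.14.

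Ethylene, water-deficit and kinase genes differed by less than the median interval half-width of 0.27. EIN3, the main transcription factor of ethylene responses, read 6.99, 7.04 and 7.31 in hcr1-1 and 7.10, 7.09 and 7.19 in hcr1-2, against 7.18, 7.38 and 7.37 in Col-0, a difference of -0.19 (SE 0.10) with overlapping groups. RTE1, which acts with the ethylene receptor ETR1, stood at 0.15. The 8 measured water-deficit and cold protection genes had a median of 0.025, between COR15A at -0.25 and KIN1 at 0.10. The 6 measured kinases of the HCR1 subgroup other than HCR1 lay between -0.25 and 0.15.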

How the data were processed

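Total RNA of roots from 9 pools was profiled on 1-colour Affymetrix arrays. The authors deposited log2 signals made with Affymetrix Expression Console and RMA, per the submitters' processing notes. Tool versions, settings and the genome build are not given in the sources used here. RMA equalises the arrays' distributions, so a difference in total signal cannot be seen, and with no scanner output used here no row could be called detected. Precision is limited by how few arrays there are.

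Gene pairs of the rows came from the platform annotation, and symbols and gene order from a table of RefSeq genes (TAIR10.1). Of 38408 rows, 16746 had exactly 1 gene, 758 several, and 20904 were not listed there and are unnamed here. Of the single-gene rows 16697 matched the gene table. They held 16552 genes, 165 with more than 1 row, and those were read by their brightest row.

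Groups came from the sample titles. limma 3.58.1 in R 4.3.3 was fitted to all 9 arrays with 3 genotypes (lmFit, eBayes, two-sided, Benjamini-Hochberg over all 16746 rows), with both lines weighted equally against Col-0, and was tested on simulated data. Families were matched by patterns in symbols and synonyms, written after the names in the tables were known, and lists were compiled by locus. Members, lists and families were chosen with earlier results of these data known. The named genes were HCR1, the 15 genes per direction without overlap that had the largest shared difference (the smaller of the 2 lines' log2 fold changes), up to 3 members per family or list in the direction of its median, and the 10 sets with medians farthest from that of all rows. Separated genes with a symbol outside that rule were added after their values were seen, as were PYE, bHLH121, PDC3, AT1G61590, FACT, COR15A, JAL33, UGT73C2, UGT85A5 and the cell type markers named.

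Alternatives were a fit of 2 groups, quantile normalization, median centring, a block for the replicate number, leaving out dimmer rows, trended and robust variances, array weights, an adjusted p of 0.1, a gap of 0.1 and leaving out each array in turn. Leaving out replicate 2 of hcr1-1 and of Col-0 together was chosen after seeing the data. The sources used here give no scan date or slide, so no batch was tested.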

Additional observations from a re-analysis of the deposited data

How the results depend on the processing

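The count of genes changed was 0 under every alternative except without hcr1-1 replicate 3, where it was 2 (HCR1 at -0.95 and AT5G35940, adjusted p = 0.0448, limma), so that leaving out 1 array gave 0 to 2. HCR1 ranged from -1.22 to -0.95 over those fits. Over all rows, deviations of same-numbered arrays correlated between -0.19 and 0.16, over 0.1 in 2 of 9 pairs. Other pairs lay between -0.20 and 0.24. A correlation over all rows does not show whether same-numbered arrays share an effect in some genes, which was not tested. In the heat shock list the second array was the lowest of each genotype, and in the iron list the third was the highest. With the replicate block the count was 0 and HCR1 stayed at -1.12. Rows with all mutant arrays above or below Col-0 numbered 168 and 151 after quantile normalization, 155 and 132 after median centring, 78 and 66 of 8373 with the dimmer rows left out, and 36 and 19 with a gap of at least 0.1. With 1 array fewer, groups separate more readily by construction, and the counts were 248 to 577 above and 170 to 526 below. They passed 1.5 times the full count without Col-0 replicate 1 (520 above, 353 below), Col-0 replicate 2 (577, 526), Col-0 replicate 3 (520, 411), hcr1-1 replicate 1 (323, 218), hcr1-1 replicate 3 (293, 239), hcr1-2 replicate 1 (313, 236) and hcr1-2 replicate 3 (305, 191). Of 945 alternative values of 61 named genes, 941 kept direction and side of the threshold. The reversed ones were AT1G07400, at 0.00083 without Col-0 replicate 1 (lowest -0.62, without Col-0 replicate 2), and VPS25, at -0.045 without Col-0 replicate 3 (highest 0.15, without Col-0 replicate 1), and the cause was not tested. Medians of the 10 described sets moved by less than the spread between arrays in all 130 recomputed values. That spread is wide beside most of these medians: leaving out 1 array moved 8 of the 10 by over 1.5 times, and that of the xyloglucan enzymes turned to -0.014. Of the 61 genes, 21 moved by over 1.5 times without 1 array. The core hypoxia median ranged from -0.86 (without Col-0 replicate 2) to -0.44 (without Col-0 replicate 3), and that of heat shock genes from -0.31 to -0.11. The others ranged from -0.069 to -0.00057 for ubiquitin-specific proteases, 0.028 to 0.074 for VPS proteins, 0.00058 to 0.11 for autophagy, -0.014 to 0.18 for xyloglucan enzymes, 0.026 to 0.12 for glutathione S-transferases, 0.035 to 0.15 for SCR-like peptides, 0.034 to 0.14 for iron genes and 0.088 to 0.13 for AT2G07 loci.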

Other observations

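Some sets outside the 10 described above held a named member whose log2 difference from Col-0 was of similar size in both lines, and these genes were singled out after their values were seen. None passed the limma test after adjustment, and in none did all 6 mutant arrays lie on one side of Col-0. The glutamate receptor-like channel GLR2.2 stood at 0.33 (SE 0.29), with 0.32 in hcr1-1 and 0.33 in hcr1-2, beside a family median of 0.024 over 10 members. OTP87, a factor that edits mitochondrial RNA, stood at 0.25 (SE 0.11) in both lines together and at 0.25 in each line. The calmodulin-like gene CML43 stood at 0.41 (SE 0.15), with 0.32 in hcr1-1 and 0.49 in hcr1-2, on the other side from CML38 at -1.18.

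On the lower side, the cation/H+ exchanger CHX21 stood at -0.39 (SE 0.29), with -0.41 in hcr1-1 and -0.36 in hcr1-2. Its arrays were uneven, since it read 2.85, 2.94 and 3.005 in hcr1-1 and 3.96, 2.59 and 2.39 in hcr1-2, against 3.23, 3.05 and 3.74 in Col-0, so that the first hcr1-2 array lay above every Col-0 array and the other mutant arrays lay below. The carrier AT1G72125 of the NRT1/PTR family stood at -0.36 (SE 0.21), with -0.35 in hcr1-1 and -0.36 in hcr1-2. The methionine sulfoxide reductase MSRB4, which repairs oxidised methionine, stood at -0.26 (SE 0.13), with -0.24 in hcr1-1 and -0.29 in hcr1-2. In the mean of both lines 7 of 9 cation/H+ exchangers and 9 of 13 NRT1/PTR carriers were lower, against 47.1% of all rows. Of the exchangers 7 were lower and 2 higher in both lines. Of the carriers only 6 were lower and 3 higher in both lines.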
